A study of Mus musculus with 4 samples.

Results

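The genes described here are 8 factors that set up and maintain the identity of the thymic epithelium: Foxn1, Pax1, Pax9, Eya1, Six4, Tbx1, Hoxa3 and Trp63. They were found by their symbols in a table of 54532 genes, and all 8 were present, each under 1 identifier. The table holds 4 bulk RNA sequencing libraries from the thymus of C57BL/6 mice, which are medullary epithelium (mTEC, sorted as Ly51- UEA1+) of SCD1 knockout mice, mTEC of littermate controls labelled WT, cortical epithelium (cTEC, sorted as Ly51+ UEA1-) of SCD1 knockout mice, and cTEC of littermate controls. SCD1 is a stearoyl-CoA desaturase. No source used here gives the age or sex of the mice, the number pooled into a library, the deleted part of the gene, or whether the deletion was limited to certain cells.

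The thymic epithelium arises from the endoderm of the third pharyngeal pouch. In mouse embryos Hoxa3, the paired-box genes Pax1 and Pax9, and Eya1 act early in the pouch, Six4 encodes a homeodomain protein of the same network, and Tbx1 guides the outgrowth of the pouches. Foxn1, the gene disrupted in the nude mouse, then drives differentiation of cortical and medullary cells and stays active after birth. Trp63 encodes p63, the regulator that maintains stratified epithelia and the growth capacity of thymic epithelial precursors.

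Each group has 1 library, so that no difference has a replicate check, no p-value was computed, and the values compare these libraries and not the genotypes or populations. All intervals are 95% intervals that cover counting error only. Reads assigned to genes ranged over 15740383 to 18151725 per library. The knockout was visible in the targeted gene: Scd1 stood at 15.8 CPM (reads scaled to library size, TMM) in knockout mTEC, against 76.9 in control mTEC, and at 4.16 CPM in knockout cTEC, against 21.3 in control cTEC. The sorts were visible in the marker lists. The 12 cTEC markers summed to 6331 and 5519 CPM in knockout and control mTEC and to 26739 and 21817 CPM in knockout and control cTEC, and the 11 mTEC markers to 7148, 7301, 2930 and 3199 CPM in the same libraries. No marker of the 9 cell type lists was at 0 reads in any library, also not those of thymocytes (286, 235, 427 and 329 CPM in the same order), of fibroblasts and mesenchyme (210, 205, 423 and 425 CPM) or of endothelium (49.5, 38.6, 29.0 and 19.4 CPM). In cTEC most of the fibroblast and mesenchyme sum was Dcn (301 and 297 CPM, against 71.0 in each mTEC library). The 10 genes of that list lay on both sides for mTEC over cTEC. Intervals lay above equality for 4 and below it for 6 in the knockout pair, and for 2 and 4 in the control pair. In bulk RNA, fewer cells of a type and less RNA per cell cannot be told apart.

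The upstream sequences of Foxn1 and Pax1 are shown because the genotype and population results below turn on these genes. Both are the 250 bases before the RefSeq start of the gene on build GRCm38.p6, the assembly of mm10, written 5' to 3' on the strand of the gene. Capitals mark GACGC, a core motif bound by FOXN1, where it was found on either strand (as GACGC or GCGTC). The Foxn1 stretch lies at chr11:78386609-78386858 on the minus strand and the Pax1 stretch at chr2:147364744-147364993 on the plus strand.
Foxn1: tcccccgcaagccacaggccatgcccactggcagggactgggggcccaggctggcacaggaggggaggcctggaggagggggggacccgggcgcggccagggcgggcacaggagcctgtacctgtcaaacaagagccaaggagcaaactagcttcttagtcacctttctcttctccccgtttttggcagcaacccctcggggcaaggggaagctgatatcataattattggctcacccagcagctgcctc
Pax1: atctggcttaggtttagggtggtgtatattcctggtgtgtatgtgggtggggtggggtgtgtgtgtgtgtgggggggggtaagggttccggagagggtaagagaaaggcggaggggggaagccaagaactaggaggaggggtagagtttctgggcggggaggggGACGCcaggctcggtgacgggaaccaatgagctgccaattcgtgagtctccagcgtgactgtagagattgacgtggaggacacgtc
The Foxn1 stretch has no such letters and 63.2% G or C. The Pax1 stretch has 1 match, which begins 86 bases upstream of the start, and 58.8% G or C. Among the 8 RefSeq promoters found for 6 of the members (Foxn1, Pax1, Pax9, Six4, Tbx1 and Hoxa3), 3 held the motif, against 22.6% of all 32817 promoters in the table. The Pax1 stretch lies inside the counted span of the gene (chr2:147361925-147393295), on 0 of its exon bases. The Hoxa3 window, 1 of the 3, lies on exons of Hoxa3 over all 250 bases. Such a match is a description of letters in a window, not a site.

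Compared per length, in RPKM (CPM divided by gene length in kilobases), the members spanned a wide range, and the same 5 genes led in all 4 libraries. Pax1 was at 43.6 RPKM in knockout mTEC, 37.9 in control mTEC, 188 in knockout cTEC and 161 in control cTEC. Foxn1 was at 38.7 and 39.1 RPKM in knockout and control mTEC and at 64.6 and 53.5 RPKM in knockout and control cTEC. Trp63 was at 28.5 and 32.7 RPKM in the mTEC libraries and at 65.9 and 65.1 RPKM in the cTEC libraries, knockout first. Below these came Pax9 (23.4 to 33.8 RPKM over the 4 libraries), Eya1 (10.4 to 18.8) and Six4 (3.54 to 4.48), and Hoxa3 (1.34 to 3.72) and Tbx1 (0.744 to 1.77) were lowest.

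**Figure D1:**
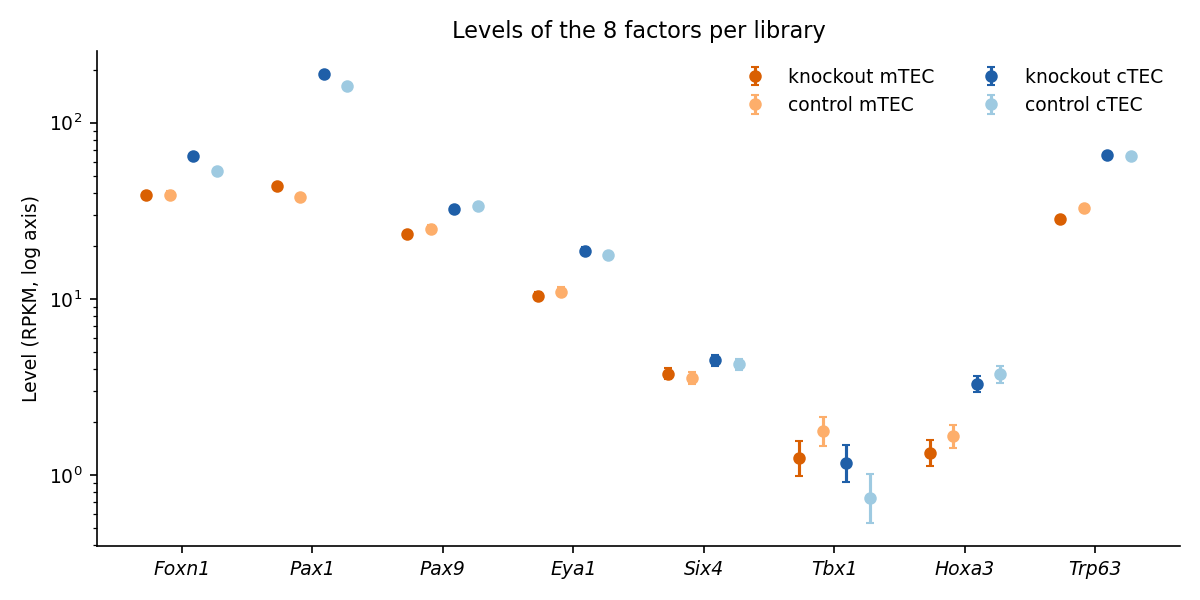
Level of each factor in RPKM (log axis) in each of the 4 libraries; points are single libraries and bars are 95% counting intervals. Pax1 reaches 188 RPKM in knockout cTEC, and Hoxa3 and Tbx1 stay at or below 3.72 RPKM in all 4 libraries.

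The order of levels was Pax1, Trp63, Foxn1, Pax9, Eya1, Six4, Hoxa3 and Tbx1 in both cTEC libraries. Intervals of neighbours overlapped for Trp63 and Foxn1 in knockout cTEC and for Six4 and Hoxa3 in control cTEC, and those of the other neighbours did not. In mTEC the first places were taken by Pax1 and Foxn1, whose intervals overlapped in the control library and not in the knockout library, followed by Trp63, Pax9, Eya1 and Six4, with overlapping intervals of Hoxa3 and Tbx1 in both libraries. Of the 1469 genes that the table marks as transcription factors, Pax1 ranked 12 and 14 by RPKM in knockout and control cTEC and 57 and 65 in knockout and control mTEC. Foxn1 ranked 30 and 48 in the cTEC libraries and 63 and 60 in the mTEC libraries, and Tbx1 ranked between 697 and 855 over the 4 libraries. Eya1, a coactivator and phosphatase that binds DNA through its homeodomain partners, is not marked as a transcription factor in the table.

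All 8 genes lie on assembled chromosomes of mm10. Foxn1 (ENSMUSG00000002057) is at chr11:78357577-78386558, Pax1 (ENSMUSG00000037034) at chr2:147361925-147393295, Pax9 (ENSMUSG00000001497) at chr12:56691767-56712822 and Eya1 (ENSMUSG00000025932) at chr1:14168954-14310235. Six4 (ENSMUSG00000034460) is at chr12:73099609-73113456, Tbx1 (ENSMUSG00000009097) at chr16:18580979-18590671, Hoxa3 (ENSMUSG00000079560) at chr6:52169062-52213336 and Trp63 (ENSMUSG00000022510) at chr16:25683763-25892102. In GENCODE M21, 27.1% of the exon bases of Hoxa3 also belong to exons of 5 overlapping genes, among them Hoxaas2 and Hoxaas3, and 27.5% of the 50-base windows of its longest transcript occur in other genes. Without a stated strand setting its count is therefore uncertain. The shares of exon bases were 4.07% for Pax1 and 3.74% for Pax9, and 0 for the other 5 members, and the shares of windows were at most 1.92% for these 7. Counts are per gene, so that the long and short p63 isoforms are not separated.

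Between populations, most members stood lower in mTEC than in cTEC. Pax1 was 4.31-fold lower in mTEC in the knockout pair and 4.25-fold lower in the control pair, and Trp63 2.31-fold and 1.99-fold lower. By a size rule (at least 50 reads over the 2 libraries, at least 2-fold, interval excluding equality), 3 of 8 members passed in the knockout pair, Pax1, Hoxa3 and Trp63, all lower in mTEC. In the control pair Pax1 and Hoxa3 were lower and Tbx1 was higher in mTEC. The same rule was passed by 28.8% of 15962 genes in the knockout pair and 27.5% of 15747 genes in the control pair. With an interval below equality counted alone, 7 of 8 members were lower in mTEC in each pair, against 41.6% of all genes in the knockout pair and 39.9% in the control pair. None of 8 had an interval above equality in the knockout pair, against 34.9% of all genes, and 1 of 8 did in the control pair, against 34.8%. With scaling to epithelial markers (the summed reads of 7 general epithelial genes) 2 were above and 5 below in the knockout pair, and 2 above and 4 below in the control pair. This second count depends on depth: the members had a median of 4468 and 4176 reads over the knockout and control pairs, and all genes tested 784 and 734.

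Direction for the less divergent members depended on the scaling. When the libraries were scaled to 7 epithelial markers in place of all genes, the median log2 ratio of all genes moved by 0.50 in both pairs. The ratios of Pax9 then became 0.03 and 0.07 in the knockout and control pairs, those of Six4 0.25 and 0.24, and that of Foxn1 in the control pair 0.05. In that marker list Krt8 gave 40.4% to 42.0% of the reads over the 4 libraries. Krt18 gave 30.4% and 29.2% in knockout and control mTEC and 44.6% and 43.6% in knockout and control cTEC. Krt8 also stands in the cTEC marker list. Scaled to all genes, Krt8 and Krt18 were lower in mTEC in both pairs, and the other 5 had intervals above equality. This scale is therefore not independent of the sort. Relative to the median of all genes, which a change of scaling leaves as it is, Foxn1 stood at -0.66 and -0.40 on the log2 scale in the knockout and control pairs, Pax9 at -0.39 and -0.38, Six4 at -0.17 and -0.21, and Tbx1 at 0.17 and 1.29.

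**Figure D2:**
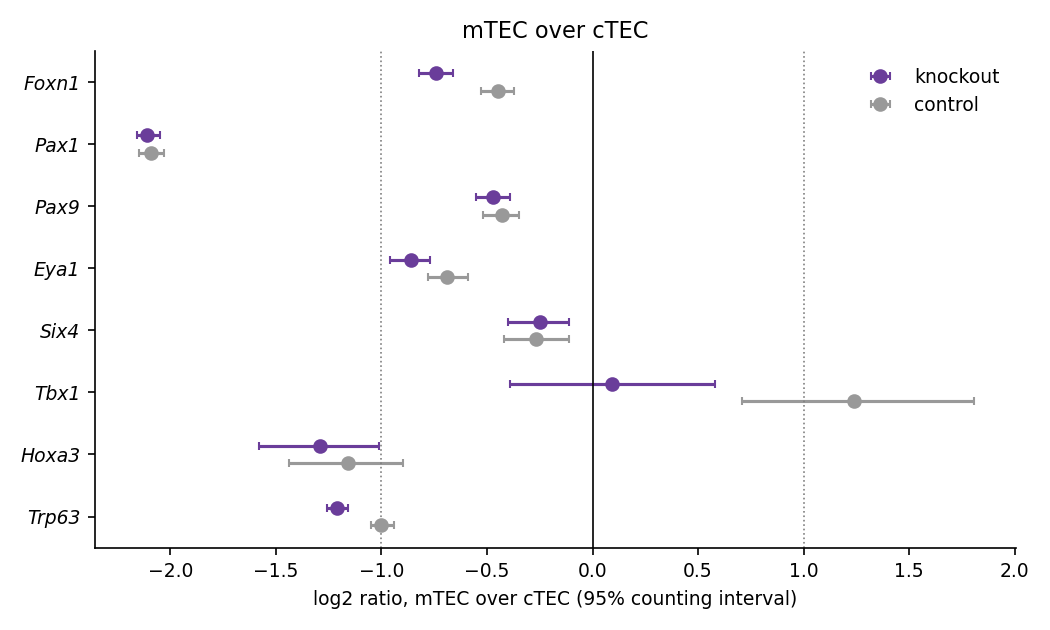
Log2 ratio of mTEC over cTEC for each factor in the knockout and the control libraries, with 95% counting intervals; dotted lines mark 2-fold. Pax1 lies at -2.11 and -2.09, and Tbx1 is the member with ratios above 0 (0.09 and 1.24); with scaling to epithelial markers Pax9 and Six4 (both genotypes) and Foxn1 (control) also lie above 0.

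The paired-box genes differed from each other in this respect. Pax1 had 3439 reads in knockout mTEC and 14774 in knockout cTEC (log2 ratio -2.11, -2.16 to -2.05), and 2901 reads in control mTEC and 11063 in control cTEC (-2.09, -2.15 to -2.03). Only 0.8% and 0.9% of the transcription factor genes tested had a lower ratio. Pax9, its paralog with a role in placing the thymus in the mouse, had 2075 and 2862 reads in the knockout pair (-0.47, -0.55 to -0.39) and 2158 and 2613 in the control pair (-0.43, -0.52 to -0.35), mTEC first. Per length, Pax1 exceeded Pax9 by 1.87-fold (1.77 to 1.97) in knockout mTEC, 1.51-fold (1.43 to 1.60) in control mTEC, 5.81-fold (5.58 to 6.05) in knockout cTEC and 4.76-fold (4.57 to 4.97) in control cTEC. Of the summed RPKM of the 8 members, Pax1 made up 28.9% and 24.8% in knockout and control mTEC and 49.6% and 47.4% in knockout and control cTEC.

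Trp63 had 4205 and 9696 reads in knockout mTEC and cTEC (log2 ratio -1.21, -1.26 to -1.16), and 4671 and 8351 in control mTEC and cTEC (-1.0, -1.05 to -0.94). The listed p63 targets lay on both sides of equality. Of 14 listed targets, 6 had an interval above and 8 below equality in the knockout pair, and 5 above and 8 below in the control pair, with median log2 ratios of -0.40 and -0.41 against -0.08 and -0.05 over all genes. Under the epithelial scaling these list medians were 0.10 and 0.09. By the size rule 1 was higher and 3 were lower in each pair. This was 28.6%, against 28.8% of all genes in the knockout pair and 27.5% in the control pair. With scaling to epithelial markers 5 targets were higher and 2 lower in the knockout pair and 4 higher and 2 lower in the control pair. Of all genes, 34.9% and 34.8% had an interval above equality in the knockout and control pairs, and 41.6% and 39.9% below it. The targets had a median of 14690 and 13956 reads over these pairs, and all genes 784 and 734. The basal keratin gene Krt14 was higher in mTEC (1.42, 1.39 to 1.46 in the knockout pair and 1.34, 1.30 to 1.37 in the control pair). The Notch ligand gene Jag2 (-1.94 and -1.88), the basement membrane protein gene Fras1 (-1.74 and -1.90) and the cytoskeletal linker gene Dst (-1.15 and -1.10) were lower in mTEC, of which Dst no longer passed the rule with scaling to epithelial markers (-0.65 and -0.60). Trp73, which encodes the p53 family member p73, was also lower in mTEC by the rule (146 and 316 reads in the knockout pair, 160 and 327 in the control pair), and no longer by the rule with scaling to epithelial markers (-0.62 and -0.68).

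Foxn1 had 2184 and 3639 reads in knockout mTEC and cTEC (log2 ratio -0.74, -0.82 to -0.66), and 2143 and 2628 in control mTEC and cTEC (-0.45, -0.53 to -0.37). Of its 9 listed targets, 8 passed the size rule as lower in mTEC in each pair, with a median of -2.53 and -2.68, and 7 did with scaling to epithelial markers. The rule was passed in either direction by 28.8% and 27.5% of all genes, whose medians were -0.08 and -0.05. As lower in mTEC it was passed by 1430 of 15962 genes in the knockout pair and 1341 of 15747 in the control pair. Depth differed, with a median of 13227 and 9883 reads for the targets and 784 and 734 for all genes. The serine protease gene Prss16 (-3.80 and -3.96), the thymoproteasome gene Psmb11 (-3.57 and -3.74), the chemokine gene Cxcl12 (-3.48 and -3.39) and Cd83 (-2.95 and -2.71), which supports CD4 T cell selection, had the largest ratios of the targets. Of these 9 targets, 7 also stand in the cTEC marker list, so that the list is not independent of the sort, and Fgfr2 also stands in the p63 list.

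Tbx1 and Hoxa3 had the fewest reads. Tbx1 had 77 and 72 reads in knockout mTEC and cTEC (log2 ratio 0.09, -0.39 to 0.58), and 106 and 40 in control mTEC and cTEC (1.24, 0.71 to 1.81). Hoxa3 had 142 and 347 reads in the knockout pair (-1.29, -1.58 to -1.01) and 170 and 342 in the control pair (-1.16, -1.44 to -0.90), mTEC first. The neighbouring Hoxa4 was also lower in mTEC, with 34 and 91 reads in the knockout pair and 42 and 76 in the control pair, mTEC first. When scaled to epithelial markers its interval covered equality in the control pair (-1.09 to 0.05). Eya1 had 1420 and 2578 reads in the knockout pair (-0.86, -0.96 to -0.77) and 1466 and 2116 in the control pair (-0.69, -0.78 to -0.59). Six4 had 717 and 852 reads (-0.25, -0.40 to -0.11) and 654 and 705 (-0.27, -0.42 to -0.11).

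**Figure D3:**
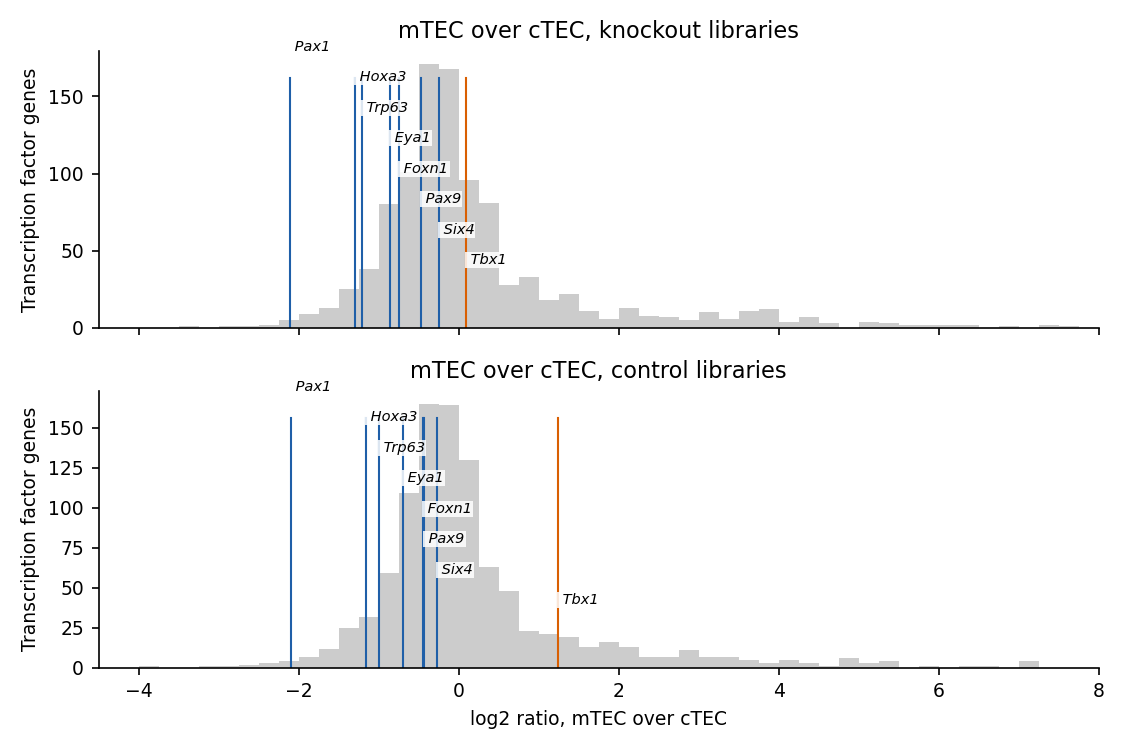
Distribution of the log2 ratio of mTEC over cTEC over the genes marked as transcription factors with at least 50 reads in the pair (1015 in the knockout and 1007 in the control libraries), with lines at the 8 factors; Eya1 is drawn although the table does not mark it. Pax1 lies near the lower end, at -2.11 and -2.09, with Hoxa3 and Trp63 next to it.

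Between genotypes, no member reached 2-fold in either population. By the size rule 0 of 8 members passed in mTEC, against 0.935% of 16466 genes, and 0 of 8 in cTEC, against 1.18% of 14445 genes. In mTEC, 1 of 8 had an interval above equality, Pax1, against 11.6% of all genes, and 3 of 8 had an interval below it, Pax9, Tbx1 and Trp63, against 10.2%. In cTEC, 4 of 8 had an interval above equality, Foxn1, Pax1, Eya1 and Tbx1, against 16.3% of all genes, and 0 of 8 below it, against 14.5%. These counts did not hold with scaling to epithelial markers, where 1 was above and 6 were below in mTEC, and 2 were above and 3 below in cTEC. With DESeq2 size factors, and with total counts, 3 members and not 4 were above in cTEC. These counts again favour deep genes, since members had a median of 3560 and 5084 reads over the mTEC and cTEC pairs and all genes 700 and 879. The median log2 ratio of the members was -0.10 in mTEC and 0.08 in cTEC, and that of all genes 0.01 in both. With scaling to epithelial markers the medians of the members were -0.18 and -0.00, and those of all genes -0.08 and -0.07.

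**Figure D4:**
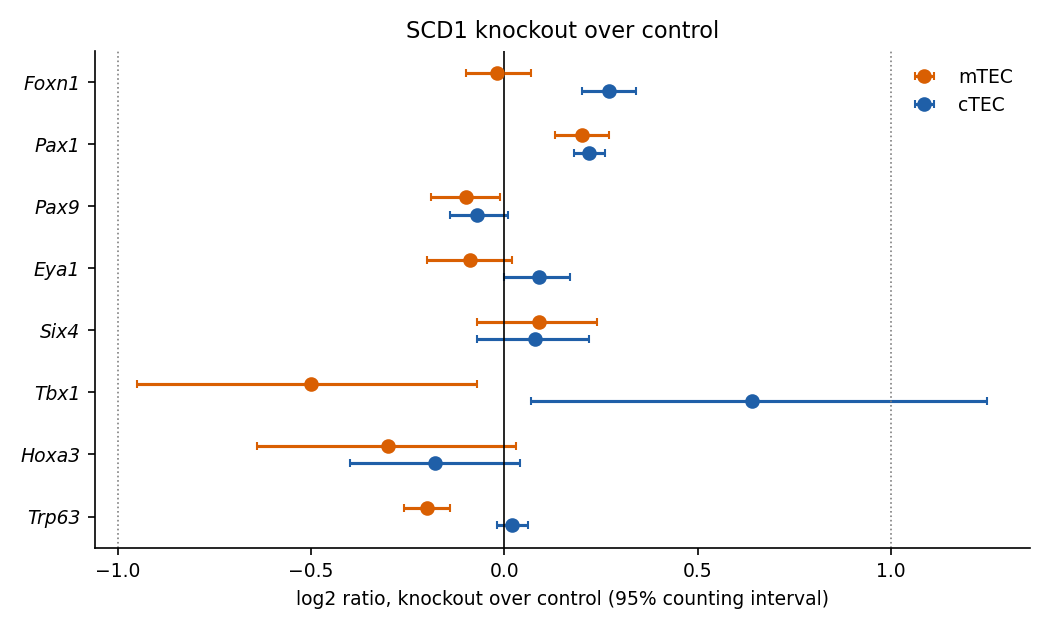
Log2 ratio of knockout over control for each factor in mTEC and in cTEC, with 95% counting intervals; dotted lines mark 2-fold. Pax1 lies above 0 in both populations (0.20 and 0.22), Foxn1 in cTEC alone has an interval clear of 0 (0.27), and Tbx1 lies on opposite sides (-0.50 and 0.64).

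Foxn1 was at 124 CPM (119 to 130) in knockout mTEC, against 126 CPM (120 to 131) in control mTEC, and at 208 CPM (201 to 214) in knockout cTEC, against 172 CPM (165 to 179) in control cTEC. The mTEC intervals overlapped, and the cTEC intervals did not. The log2 ratio was -0.02 (-0.10 to 0.07) in mTEC and 0.27 (0.20 to 0.34) in cTEC, where 89.0% of the 933 transcription factor genes tested had a lower ratio. The difference between these ratios, mTEC minus cTEC, was -0.29 (-0.40 to -0.18) by counting error. Under the epithelial scaling the cTEC ratio was 0.19 (0.11 to 0.26) and the mTEC ratio -0.10 (-0.19 to -0.02).

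Pax1 was at 196 CPM (189 to 202) in knockout mTEC, against 170 CPM (164 to 177) in control mTEC, and at 843 CPM (829 to 856) in knockout cTEC, against 724 CPM (710 to 737) in control cTEC. It was the member with an interval above equality in both populations, at log2 ratios of 0.20 (0.13 to 0.27) and 0.22 (0.18 to 0.26), or 1.15-fold and 1.16-fold. When scaled to epithelial markers the ratios were 0.11 (0.04 to 0.19) and 0.13 (0.10 to 0.17). Pax9 was at 118 CPM in knockout mTEC, against 127 in control mTEC, and at 163 CPM in knockout cTEC, against 171 in control cTEC. Its log2 ratios were -0.10 (-0.19 to -0.01) and -0.07 (-0.14 to 0.01), so that the pair of paralogs lay on opposite sides of equality in mTEC.

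Trp63 was at 239 CPM (232 to 247) in knockout mTEC, against 274 CPM (266 to 282) in control mTEC, and at 553 CPM (542 to 564) in knockout cTEC, against 546 CPM (535 to 558) in control cTEC. Intervals were separate in mTEC and overlapped in cTEC. The log2 ratios were -0.20 (-0.26 to -0.14) and 0.02 (-0.02 to 0.06), a difference of -0.21 (-0.29 to -0.14). With scaling to epithelial markers the cTEC ratio was -0.07 (-0.11 to -0.03). Eya1 stood at -0.09 (-0.20 to 0.02) in mTEC and 0.09 (0.00 to 0.17) in cTEC, a difference of -0.18 (-0.31 to -0.04), and its cTEC ratio was 0.00 with scaling to epithelial markers. Six4 stood at 0.09 (-0.07 to 0.24) and 0.08 (-0.07 to 0.22), and Hoxa3 at -0.30 (-0.64 to 0.03) and -0.18 (-0.40 to 0.04), so that these 4 intervals covered equality. Under the epithelial scaling both Hoxa3 intervals lay below it, in mTEC at -0.39 (-0.72 to -0.06) and in cTEC at -0.26 (-0.48 to -0.04). A difference was not detectable at this depth for Six4. Scaled to all genes, the intervals allow a Hoxa3 level up to 1.55-fold lower in knockout mTEC and 1.32-fold lower in knockout cTEC.

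Tbx1 had 77 reads in knockout mTEC, against 106 in control mTEC, and 72 reads in knockout cTEC, against 40 in control cTEC. In CPM this was 4.38 (3.46 to 5.48) against 6.22 (5.09 to 7.52), and 4.11 (3.21 to 5.17) against 2.62 (1.87 to 3.56). The log2 ratios were -0.50 (-0.95 to -0.07) and 0.64 (0.07 to 1.25), a difference of -1.15 (-1.84 to -0.45). When scaled to epithelial markers the cTEC interval covered equality (-0.01 to 1.16). Ripply3, which encodes a corepressor of TBX1, had 359 reads in knockout mTEC, against 285 in control mTEC (0.29, 0.06 to 0.52), and 185 in knockout cTEC, against 134 in control cTEC (0.27, -0.06 to 0.60). Ripply3 was higher in mTEC than in cTEC in each genotype (log2 ratios 0.95 and 0.93 in the knockout and control pairs), below the 2-fold rule, and past it with scaling to epithelial markers (1.45 and 1.43). Under that scaling its genotype interval in mTEC covered equality (-0.03 to 0.43).

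Cell type markers also differed between the knockout and control libraries. In the cTEC pair all 12 cTEC markers, a list that includes Foxn1, had an interval above equality (median 0.32), as did 11 of the 12 thymocyte markers tested (median 0.38), while 6 of 11 mTEC markers had an interval below it and 2 above. The mTEC list holds Ccl21a, which the table lists under 2 identifiers, and the first of these was used. In the mTEC pair 9 of 12 cTEC markers had an interval above equality (median 0.17), as did 8 of 12 thymocyte markers (median 0.28). The mTEC markers had 4 intervals above and 3 below it (median -0.01). With scaling to epithelial markers 6 cTEC markers were above and 1 below in the mTEC pair, and 4 thymocyte markers above. In the cTEC pair 12 cTEC and 9 thymocyte markers were then above, and 2 mTEC markers above and 8 below. Of all genes, 11.6% had an interval above and 10.2% below equality in the mTEC pair, and 16.3% and 14.5% in the cTEC pair. Of the fibroblast and mesenchyme markers tested, which could bear on Hoxa3, Eya1 and Tbx1, 0 of 9 had an interval clear of equality in mTEC, and in cTEC 1 of 9 was above and 1 below. The endothelial list had 3 of 5 intervals above equality in mTEC (median 0.63) and 2 of 4 in cTEC (median 0.57), and 1 of its genes passed the size rule in each pair. These were the junction genes Cldn5 in mTEC (53 reads in the knockout and 10 in the control library) and Cdh5 in cTEC (53 and 17 reads). The myeloid list had 2 of 8 intervals above equality in mTEC (median -0.00) and 4 of 6 in cTEC (median 0.32). Depth differed between lists. The cTEC markers had a median of 5211 and 42425 reads over the mTEC and cTEC pairs, the thymocyte markers 632 and 906, and all genes 700 and 879. The part of all these cell types in the ratios of the 8 factors was not tested.

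Most listed targets of FOXN1 stood higher in the knockout library of both populations, without any passing 2-fold. The list medians were 0.20 in mTEC and 0.24 in cTEC with scaling to epithelial markers. Of the 9 targets, 7 also stand in the cTEC marker list, whose 12 genes all had intervals above equality in the cTEC pair. The target list is therefore not independent of those markers. In mTEC, 6 of 9 had an interval above equality and 1, the growth factor receptor gene Fgfr2, below it (median 0.29), with Psmb11 at 0.50 (0.36 to 0.64), Prss16 at 0.49 (0.44 to 0.53), Tbata at 0.41 (0.37 to 0.45) and the chemokine gene Ccl25 at 0.38 (0.33 to 0.43). In cTEC, 8 of 9 had an interval above equality and 0 below it (median 0.33), with Cd83 at 0.53 (0.47 to 0.59), Tbata at 0.39 (0.37 to 0.41), the Notch ligand gene Dll4 at 0.34 (0.23 to 0.45) and Prss16 at 0.33 (0.32 to 0.34). Of the 14 p63 targets, 1 had an interval above and 6 below equality in mTEC (median -0.04), and 2 above and 7 below in cTEC (median -0.05). With scaling to epithelial markers 0 were above and 10 below in mTEC, and 1 above and 10 below in cTEC. Of all genes, 11.6% had an interval above and 10.2% below equality in mTEC, and 16.3% and 14.5% in cTEC. Such counts favour deep genes. The FOXN1 targets had a median of 6095 and 20663 reads over the mTEC and cTEC pairs, the p63 targets 10546 and 13962, and all genes 700 and 879. In mTEC the integrin gene Itgb4 was at -0.18 (-0.23 to -0.13) and Krt14 at -0.15 (-0.17 to -0.12), while Bnc1 (-0.42 to 0.06) and Fras1 (-0.08 to 0.43) had intervals that covered 0, that of Bnc1 lying below 0 with scaling to epithelial markers (-0.51 to -0.03). In cTEC, Krt14 was at -0.24 (-0.28 to -0.19), Sfn at -0.25 (-0.29 to -0.21) and Col17a1 at 0.26 (0.09 to 0.42).

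**Figure D5:**
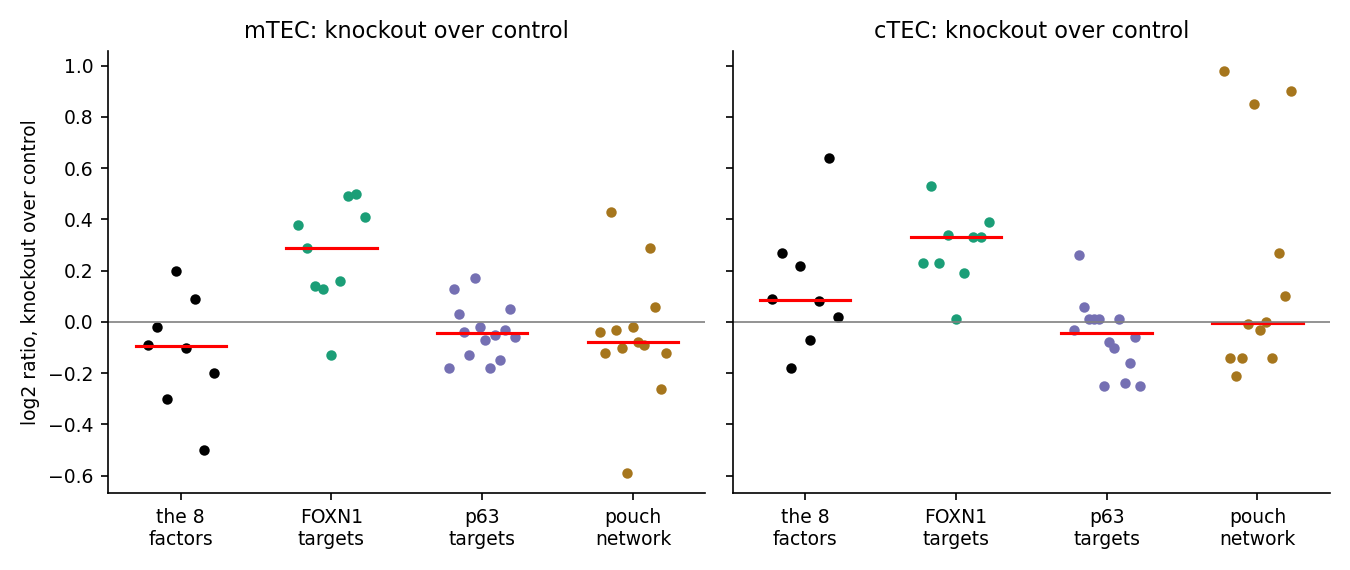
Log2 ratio of knockout over control for the 8 factors, FOXN1 targets, p63 targets and other genes of the pharyngeal pouch network with at least 50 reads in the pair, in mTEC (left) and cTEC (right); each point is a gene and the red line is the list median. FOXN1 targets have medians of 0.29 and 0.33, against -0.10 and 0.08 for the 8 factors.

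Of 19 other genes of the pouch network, 13 could be measured in the mTEC pair and 12 in the cTEC pair, and none passed the size rule between genotypes. Intervals lay above equality for 1 and below it for 3 in mTEC (median -0.08), and above for 4 and below for 3 in cTEC (median -0.00). Of all genes, 11.6% lay above and 10.2% below in mTEC, and 16.3% and 14.5% in cTEC. Gcm2, the regulator of the parathyroid that arises from the same pouch, had 91 reads in knockout mTEC, against 133 in control mTEC (-0.59, -0.99 to -0.20), and 114 in knockout cTEC, against 100 in control cTEC (-0.01, -0.41 to 0.39). The 5 parathyroid markers summed to 1674 CPM in knockout mTEC, 2215 in control mTEC, 2363 in knockout cTEC and 2349 in control cTEC, and whether their level bears on Gcm2 was not tested. In cTEC the ligand gene Bmp4 had 111 knockout and 49 control reads (0.98, 0.48 to 1.5), Tbx2 52 and 24 (0.90, 0.19 to 1.68) and Hoxb3 52 and 25 (0.85, 0.14 to 1.61). In mTEC Foxe1 (35 and 25 reads) and Tbx2 (37 and 43 reads) had intervals that covered equality.

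Foxi3, Nog and Nkx2-1 had 0 reads in both cTEC libraries, with upper 95% limits of 0.210 CPM in the knockout and 0.241 CPM in the control library. Between populations genes of the network lay on both sides. In the knockout pair 1 of 14 measured genes was higher and 3 were lower in mTEC by the size rule. In the control pair 1 of 12 was higher and 3 were lower. These shares, 28.6% and 33.3%, were near those of all genes, 28.8% and 27.5%. Under the epithelial scaling 3 genes of the network were higher and 2 lower in the knockout pair, and 3 higher and 1 lower in the control pair. Tbx3, a T-box repressor gene, had 233 reads in knockout mTEC and 5 in knockout cTEC, and 245 in control mTEC and 16 in control cTEC. The homeobox genes Meis1 (-1.58 and -1.5) and Isl1 (-1.35 in both pairs) and the ligand gene Bmp4 (-2.02 and -1.0) were lower in mTEC in both pairs. Under that scaling Bmp4 in the control pair had an interval that covered equality (-1.25 to 0.19), and Isl1 stood at -0.85 in both pairs. The median of the network was -0.38 and -0.20 in the knockout and control pairs, and 0.12 and 0.30 with scaling to epithelial markers. Eya2, a relative of Eya1, stood at 75.0, 75.6, 94.6 and 90.2 RPKM in knockout mTEC, control mTEC, knockout cTEC and control cTEC, against 10.4 to 18.8 RPKM for Eya1.

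Among the 42 relatives of the members (other members of their gene families), 30 were measured in the mTEC pair and 17 in the cTEC pair. Between genotypes 1 passed the size rule, the limb gene Tbx4 in mTEC, and none did in cTEC. Tbx4 had 15 reads in the knockout and 35 in the control library (log2 ratio -1.24, -2.25 to -0.36). These reads only just met the minimum of the rule, and any higher minimum would leave Tbx4 out. It made up 3.33% of the relatives measured in mTEC, against 0.935% of all genes. In cTEC 1.18% of all genes passed. Between populations 9 of 24 were higher and 4 lower in mTEC in the knockout pair, and 8 of 23 higher and 4 lower in the control pair. These were 54.2% and 52.2% of the relatives measured, against 28.8% and 27.5% of all genes. Genes enter this count by their summed reads in the pair. A relative with few cTEC reads is thus measured only where its mTEC reads are many, which links entry to direction. Depth also differed, with a median of 331 and 355 reads for the relatives and 784 and 734 for all genes. Whether the relatives exceed other genes apart from these limits was not tested. When scaled to epithelial markers 9 relatives were higher and 1 lower in the knockout pair, and 9 higher and 0 lower in the control pair. Some other PAX genes had most of their reads in mTEC. Pax5, a B cell gene, had 161 reads in knockout mTEC and 9 in knockout cTEC, and 133 in control mTEC and 7 in control cTEC. Pax7, a muscle precursor gene, had 86 and 3 reads in the knockout pair and 90 and 8 in the control pair, and Pax8, a thyroid gene, 48 and 3 reads in the knockout pair. Pax2 had 67 reads in control mTEC and 0 in control cTEC.

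Over the 4 libraries, the genes with the profile nearest to each member were found by the root mean square distance of centred log2 CPM among 13067 protein-coding genes with at least 200 reads. With 4 points such likeness is weak for most members: 683 genes lay within 0.1 of Foxn1, 1682 of Pax9, 765 of Eya1, 2203 of Six4 and 244 of Trp63. The nearest to these were C330018D20Rik and Ogg1 for Foxn1 (0.016 and 0.017), Ccdc77 and Pde4b for Pax9 (0.010 and 0.011), Zfp652 and Zfp612 for Eya1 (0.006 and 0.009), Zfp386 and Spry2 for Six4 (0.008 and 0.011), and Tlr3 and Zswim9 for Trp63 (0.007 and 0.013). Profiles of the other members were rarer. Within 0.1 lay 28 genes for Pax1, led by Dbp (0.025) and Neu2 (0.036), 76 for Hoxa3, led by Zhx3 (0.026) and Fat3 (0.030), and 1 for Tbx1, Gdpd2 (0.071), followed by Zmat4 (0.106). Among the members themselves the nearest pair was Hoxa3 and Trp63 (0.10), and the nearest member to Pax1 was Hoxa3, at 0.491.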

How the data were processed

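RNA of sorted mTEC and cTEC from SCD1 knockout and littermate control mice was measured in 4 libraries, 1 per group. A table of whole-number counts was deposited, not normalized, beside each gene's length in bases. Per the submitters' processing notes, CASAVA, HISAT2 2.0.5 and featureCounts 1.5.0-p3 were used with the mouse build mm10. How strand and multiply placed reads were handled, and which annotation was counted, are points not given in the sources used here.

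Library sizes were scaled with edgeR 4.0.16 (TMM; R 4.3.3). Ratios and intervals were computed in Python 3.11.15 with scipy 1.17.1, pandas 2.3.3 and numpy 2.4.6, and drawn with matplotlib 3.10.9. Levels are CPM and, between genes, RPKM from the deposited length, with exact Poisson intervals. Log2 ratios used counts scaled to the mean of the pair plus a prior of 0.5 reads, with exact conditional binomial (Clopper-Pearson) intervals at 95%. The ratio of ratios has a large-sample counting interval. Reads are not independent molecules, so intervals cover counting error only. A floor of 3 reads is 0.171 to 0.196 CPM. No test was made, because groups have 1 library. Ratios were computed over the whole table. The intervals and the size rule were tried on simulated counts with counting error alone and known library sizes. Such a trial covers neither the TMM scaling nor the spread between libraries or animals.

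The members and lists were chosen with earlier results of these data known. All members are named, with Scd1, up to 4 genes with the largest ratios per list and comparison, and the 2 nearest profiles per member. Other genes in the text (Eya2, Ripply3, Gcm2, Hoxa4 and Trp73 among them) were chosen for their relation to a member after values were seen. Some genes that the rule names are not reported here. Alternatives were DESeq2 1.42.0 size factors, total counts, scaling to 7 epithelial markers, a prior of 2 reads, no minimum or a minimum of 200 reads, and a 1.5-fold rule. Sequence sharing came from GENCODE M21 transcripts, and upstream sequences from RefSeq on GRCm38.p6.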

Additional observations from a re-analysis of the deposited data

Results flagged for a closer look

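Tbx1 had genotype ratios on opposite sides of equality in the 2 populations. Its log2 ratio of knockout over control was -0.50 in mTEC (77 and 106 reads) and 0.64 in cTEC (72 and 40 reads), each with a counting interval clear of 0. When scaled to epithelial markers the cTEC interval covered 0 (-0.01 to 1.16). Each direction rests on 1 library against 1, and the difference was not tested between animals.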

How the results depend on the processing

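With 1 library a group no library could be left out. No paired analysis was possible for the same reason. The sample titles do not say whether the mTEC and cTEC libraries of a genotype came from the same mice. Of 156 recomputed member ratios, 7 changed sign, all with scaling to epithelial markers. No member ratio left its interval with DESeq2 size factors or a prior of 2 reads. With total counts 8 of 32 did, and with scaling to epithelial markers 19 of 32 did, beside 5 of the 7 that changed sign. A minimum of 200 reads only leaves out genes, so that its 28 ratios among the 156 could not change. The 7 were, for mTEC over cTEC, Foxn1 (0.05, control), Pax9 (0.03 in knockout, 0.07 in control) and Six4 (0.25 in knockout, 0.24 in control), and, for knockout over control in cTEC, Trp63 (-0.07, against 0.02) and Six4 (-0.01, against 0.08), whose intervals had covered 0. Under that scaling 1 member, not 3, passed the size rule between populations in the knockout pair. The share of passing genes that were higher then became 36.9% against 53.9% for genotype in mTEC, 29.7% against 41.5% for genotype in cTEC, 88.2% against 68.9% for population in the knockout pair and 87.9% against 69.0% in the control pair. With a 1.5-fold rule 1 member passed between genotypes in cTEC and 5 between populations in each pair, and a minimum of 200 reads left out Tbx1. Genes passing between genotypes numbered 594 in mTEC and 676 in cTEC with a 1.5-fold rule, 992 and 1180 without a minimum of reads, and 19 and 20 with a minimum of 200. Between populations they numbered 7161 in the knockout and 6857 in the control pair, 8136 and 7789, and 2515 and 2353 under the same settings. The summed level of the members in knockout mTEC, control mTEC, knockout cTEC and control cTEC was 836, 866, 1918 and 1770 CPM with total counts, and 936, 1027, 1621 and 1578 with scaling to epithelial markers, against 812, 837, 1986 and 1823. Depth limits Tbx1 most, with 40 to 106 reads per library.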
